A study of Macaca fascicularis with 4 samples.

Results

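The 10 genes described here were taken by name: STAB1, STAB2, VWF, PECAM1, CDH5, KDR, FLT1, TEK, TIE1 and PROX1. They are used as markers of cells that line blood or lymph vessels, and some are made by other cells too. All 10 were among the 13982 genes named in 4 full-length RNA libraries of the cynomolgus monkey (Macaca fascicularis), and each had counts in liver. The libraries come from liver, from muscle, and from oWAT and sWAT as they are labelled; WAT commonly stands for white adipose tissue, and the letter before it is not spelled out. RNA of a tissue from 5 monkeys was pooled into 1 library and sequenced on the PacBio Sequel II, which reads whole cDNA molecules. The labels give no age, sex or treatment of the animals. With 1 library per tissue there are no replicates, so every interval below covers counting error only and no p-value is given.

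Endothelial cells form the inner wall of every vessel, and most of them share a set of junction proteins and receptor tyrosine kinases. The sinusoids of the liver are lined by a specialised, perforated endothelium that clears waste macromolecules from blood through scavenger receptors, the stabilins among them. PROX1, a homeobox transcription factor, sets the identity of lymphatic endothelium and is also made by hepatocytes. STAB1 is made by some macrophages as well as by endothelium.

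Levels are given as CPM, the counts of a gene per 1000000 counts that name a gene, with exact Poisson 95% intervals. The totals lay between 383896 counts in sWAT and 439872 in muscle, so 1 count is a little over 2 CPM. A fold is the ratio of CPM between a pair of libraries with an exact 95% binomial interval. A gene was called higher in a library where it had at least 10 counts there and the lower bound of the fold was above 2, and called lower by the mirror rule. The tissue labels fitted their defining genes. All 8 hepatocyte markers were called higher in liver than in every other library (10.8% of all genes tested were). All 7 myofibre markers were higher in muscle than in both WAT libraries (7.33%). All 7 adipocyte markers were lower than in both WAT libraries, in muscle (7.05%) and in liver (20.9%). In bulk tissue, fewer endothelial cells and less RNA per endothelial cell cannot be told apart.

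The members split along 2 lines. STAB2 and PROX1 were higher in liver than elsewhere, while the 7 general endothelial members (VWF, PECAM1, CDH5, KDR, FLT1, TEK and TIE1) together were lowest in liver and highest in sWAT. Those 7 summed to 155 counts in liver (354 CPM, 301 to 415), 520 in muscle (1182 CPM, 1083 to 1288), 933 in oWAT (2351 CPM, 2203 to 2507) and 1592 in sWAT (4147 CPM, 3946 to 4356). No pair of these intervals overlapped. The liver sum was 3.34 times lower than that of muscle (2.78 to 4.02), 6.64 times lower than that of oWAT (5.59 to 7.92) and 11.7 times lower than that of sWAT (9.92 to 13.9). Other scalings kept the order and narrowed the gaps between liver and the other libraries. By trimmed mean of M-values (TMM) the liver sum was 2.46, 3.31 and 6.47 times lower than those of muscle, oWAT and sWAT. By DESeq2 size factors it was 2.46, 3.34 and 6.70 times lower. The gap between oWAT and sWAT widened instead, with oWAT 1.76 times lower by library total and 1.96 times lower by TMM. It widened with DESeq2 size factors too. TMM adds 0.44, 1.01 and 0.86 to the log2 ratio of liver over muscle, oWAT and sWAT for every gene alike.

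**Figure D1:**
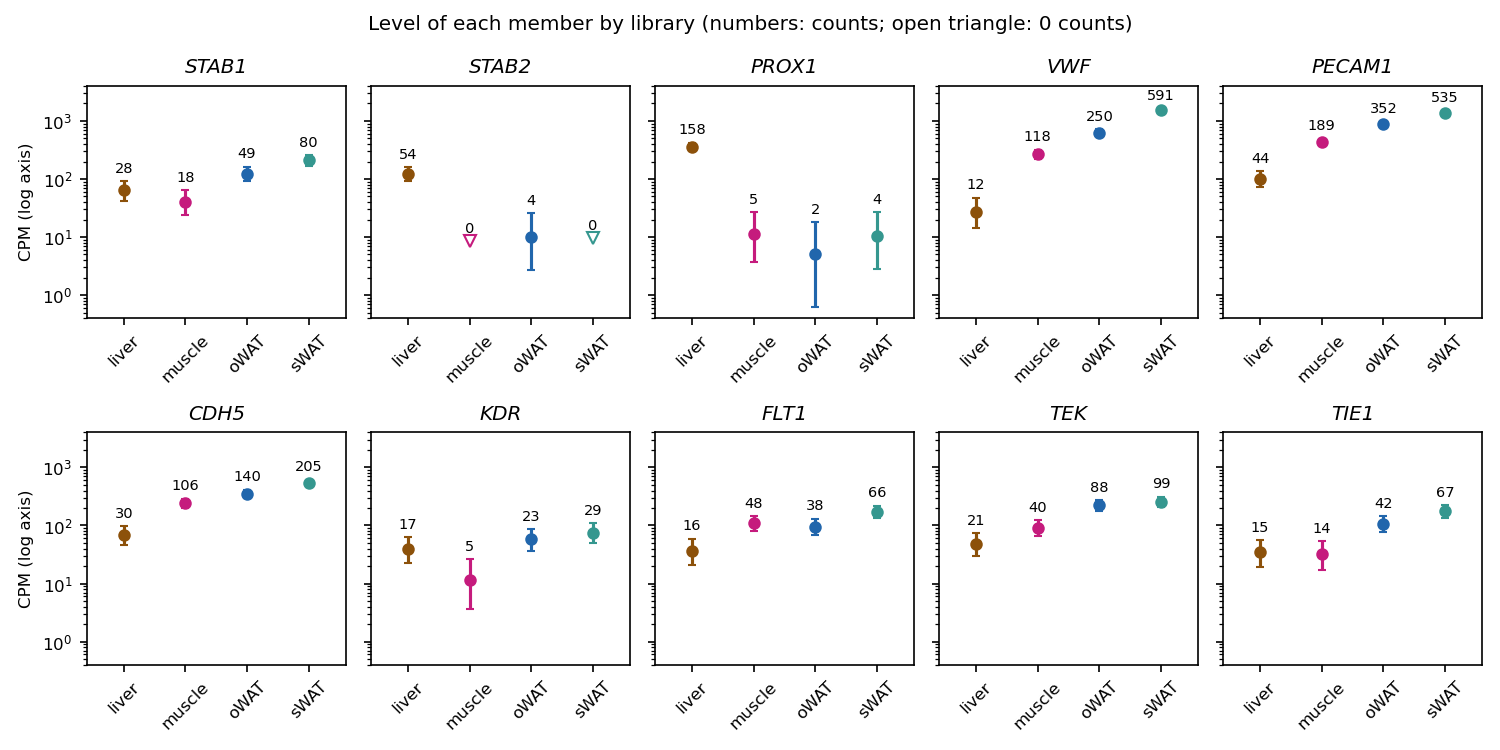
Level of each member in each library, in CPM on a log axis, with exact Poisson 95% intervals and the counts printed above each point. Open triangles mark 0 counts and stand at the upper limit of the two-sided interval, 8.39 CPM in muscle and 9.61 CPM in sWAT; STAB2 and PROX1 are highest in liver, and the other 8 members are highest in sWAT.

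STAB2, the stabilin that takes up hyaluronan in the liver sinusoid, had 54 counts in liver (123 CPM, 92.7 to 161), 0 in muscle, 4 in oWAT (10.1 CPM, 2.75 to 25.8) and 0 in sWAT. The liver value stood apart from all 3 others, and muscle, oWAT and sWAT were not separable at this depth. A count of 0 allows up to 6.82 CPM in muscle and 7.81 CPM in sWAT, taking 3 counts as the floor for a library. Against that floor STAB2 in liver was at least 18.1-fold above muscle and at least 15.8-fold above sWAT, with exact lower bounds of 14.2 and 12.4. Over the 4 counts of oWAT the fold was 12.2 (4.51 to 46.5).

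STAB1, the other stabilin, behaved differently. It had 28 counts in liver (64.0 CPM, 42.5 to 92.5), 18 in muscle (40.9 CPM, 24.3 to 64.7), 49 in oWAT (123 CPM, 91.4 to 163) and 80 in sWAT (208 CPM, 165 to 259). Its order was sWAT, then oWAT, then liver and muscle, and those last tissues did not differ beyond counting error. The liver level was 3.26 times lower than that of sWAT (2.09 to 5.20), a call that was lost with TMM scaling (0.556 times the sWAT level) and with DESeq2 size factors (0.536 times). Against oWAT it was 0.518 times as high (0.314 to 0.841) and was not called; the ratio lay at 1.04 by TMM and 1.03 by DESeq2 factors. Markers of macrophages and Kupffer cells, the resident macrophages of liver, summed to 690 CPM in liver and 418 in muscle, with 1741 in oWAT and 1167 in sWAT. Of these 15 genes, AIF1 and TYROBP were at 0 in liver, CD5L, MSR1, C1QA and FCER1G in muscle, AIF1 and TYROBP in oWAT, and TYROBP in sWAT. The list went both ways. CD5L was called higher in liver than in every other library (1 of 8 tested, background 10.8%). CD5L and CD14 were higher in liver than in muscle (2 of 8, 17.7%), and CD5L and MARCO higher than in sWAT (2 of 8, 13.6%). CD68 and MSR1 were called lower in liver than in both WAT libraries (2 of 8, 20.9%). The part of macrophages in the STAB1 levels was not tested.

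PROX1 had 158 counts in liver (361 CPM, 307 to 422), against 5 in muscle (11.4 CPM, 3.69 to 26.5), 2 in oWAT (5.04 CPM, 0.610 to 18.2) and 4 in sWAT (10.4 CPM, 2.84 to 26.7). Liver was again the only library with more than 5 counts. The fold was 31.8 over muscle (13.3 to 99.2), 71.6 over oWAT (19.5 to 597) and 34.7 over sWAT (13.3 to 129).

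Most other lymphatic genes did not share the liver-high pattern of PROX1. PDPN, the membrane glycoprotein podoplanin, had 1 count in liver and 46 in muscle, with 65 in oWAT and 60 in sWAT. LYVE1, a hyaluronan receptor of lymphatic and sinusoidal endothelium, had 6, 47, 42 and 80 in the same libraries, and MMRN1, a multimerin, had 2, 17, 40 and 13. FLT4, the lymphatic receptor for VEGF-C, had 5 counts in liver and 7 in muscle, with 9 in oWAT and 13 in sWAT, and no pair was called. PKHD1L1 had 5 counts in liver and 1 in muscle, with 28 in oWAT and 2 in sWAT. RELN, which encodes the secreted protein reelin, had 23 counts in liver and 3 in muscle, with 7 in oWAT and 2 in sWAT. It was 7.71-fold higher in liver than in muscle (2.33 to 40.1) and 10.1-fold higher than in sWAT (2.49 to 88.3), and over oWAT its fold of 2.98 (1.24 to 8.22) was not called. In the lymphatic list of 11 genes, only PROX1 and RELN had the 10 counts in liver needed for a call as higher there. Genes with fewer counts in liver could not enter that count. PROX1 was the 1 of these 2 called higher in liver than in every other library (10.8% of all genes tested). PDPN and LYVE1 were called lower in liver than in all 3 others, 2 of 3 (11.8%). With TMM or DESeq2 scaling RELN joined PROX1 (2 of 2, where 15.6% and 15.4% of all genes were called), and LYVE1 lost its call (1 of 3, where 6.11% and 6.22% were called). Hepatocyte markers moved with PROX1 and summed to 186809 CPM in liver, against 38.6 in muscle and 388 and 805 in oWAT and sWAT. The liver-restricted factor HNF4A had 96 counts in liver and 0 in muscle, oWAT and sWAT. The part of hepatocytes in the PROX1 level was not tested.

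VWF, the von Willebrand factor that tethers platelets and is stored in endothelial granules, spanned the widest range of the 7 general members. It had 12 counts in liver (27.4 CPM, 14.2 to 47.9), 118 in muscle (268 CPM, 222 to 321), 250 in oWAT (630.0 CPM, 554 to 713) and 591 in sWAT (1539 CPM, 1418 to 1669). Each library was separated from the next in that order. VWF was 9.78 times lower in liver than in muscle (5.39 to 19.5), 23.0 times lower than in oWAT (12.9 to 45.1) and 56.1 times lower than in sWAT (31.9 to 109).

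PECAM1, the adhesion molecule CD31 of endothelial contacts, had 44 counts in liver (101 CPM, 73.1 to 135), 189 in muscle (430 CPM, 371 to 495), 352 in oWAT (887 CPM, 797 to 985) and 535 in sWAT (1394 CPM, 1278 to 1517). Its order matched that of VWF with a narrower range. It was 4.27 times lower in liver than in muscle (3.06 to 6.08), 8.82 times lower than in oWAT (6.44 to 12.4) and 13.9 times lower than in sWAT (10.2 to 19.3).

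CDH5, or VE-cadherin, the adhesive protein of endothelial adherens junctions, had 30 counts in liver (68.6 CPM, 46.3 to 97.9), 106 in muscle (241 CPM, 197 to 291), 140 in oWAT (353 CPM, 297 to 416) and 205 in sWAT (534 CPM, 463 to 612). The same order held, with each step separated. CDH5 was 3.51 times lower in liver than in muscle (2.32 to 5.46), 5.15 times lower than in oWAT (3.45 to 7.91) and 7.79 times lower than in sWAT (5.29 to 11.8). With TMM and DESeq2 scaling CDH5 was 0.387 and 0.386 times its muscle level and 0.390 and 0.386 times its oWAT level, and those calls were lost.

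KDR, also called VEGFR2, is the main signalling receptor for VEGF-A in endothelium. It had 17 counts in liver (38.8 CPM, 22.6 to 62.2), 5 in muscle (11.4 CPM, 3.69 to 26.5), 23 in oWAT (58.0 CPM, 36.7 to 87.0) and 29 in sWAT (75.5 CPM, 50.6 to 108). Muscle was the low library here, and sWAT, oWAT and liver did not separate from their neighbours in the order. KDR was 3.42-fold higher in liver than in muscle (1.21 to 11.8), which was not called. Against oWAT it was 0.670 times as high in liver (0.336 to 1.31), and by TMM and DESeq2 factors the ratio lay above 1, at 1.35 and 1.33. KDR was the only general member with no call between liver and any other library.

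FLT1, or VEGFR1, binds the same ligand and acts largely as a decoy. It had 16 counts in liver (36.6 CPM, 20.9 to 59.4), 48 in muscle (109 CPM, 80.5 to 145), 38 in oWAT (95.8 CPM, 67.8 to 131) and 66 in sWAT (172 CPM, 133 to 219). Liver was lowest, sWAT highest, and muscle and oWAT did not differ beyond counting error. The liver level was 4.70 times lower than that of sWAT (2.69 to 8.70), the one pairing with liver that was called; with TMM it was 0.385 times and with DESeq2 0.371 times the sWAT level and no longer called.

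TEK, also called TIE2, is the receptor for the angiopoietins. It had 21 counts in liver (48.0 CPM, 29.7 to 73.4), 40 in muscle (90.9 CPM, 65.0 to 124), 88 in oWAT (222 CPM, 178 to 273) and 99 in sWAT (258 CPM, 210 to 314). The WAT libraries did not differ beyond counting error, both were above muscle, and muscle was above liver. TEK was 4.62 times lower in liver than in oWAT (2.85 to 7.83) and 5.37 times lower than in sWAT (3.33 to 9.06). Both calls were lost with TMM (0.434 times the oWAT and 0.337 times the sWAT level) and DESeq2 scaling (0.430 and 0.325 times).

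TIE1, the partner of TEK with no well-established ligand of its own, had 15 counts in liver (34.3 CPM, 19.2 to 56.5), 14 in muscle (31.8 CPM, 17.4 to 53.4), 42 in oWAT (106 CPM, 76.3 to 143) and 67 in sWAT (175 CPM, 135 to 222). Liver and muscle did not differ beyond counting error, and both lay below oWAT and sWAT. TIE1 was 5.09 times lower in liver than in sWAT (2.88 to 9.60), which with TMM became 0.355 and with DESeq2 0.343 times the sWAT level, without a call.

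**Figure D2:**
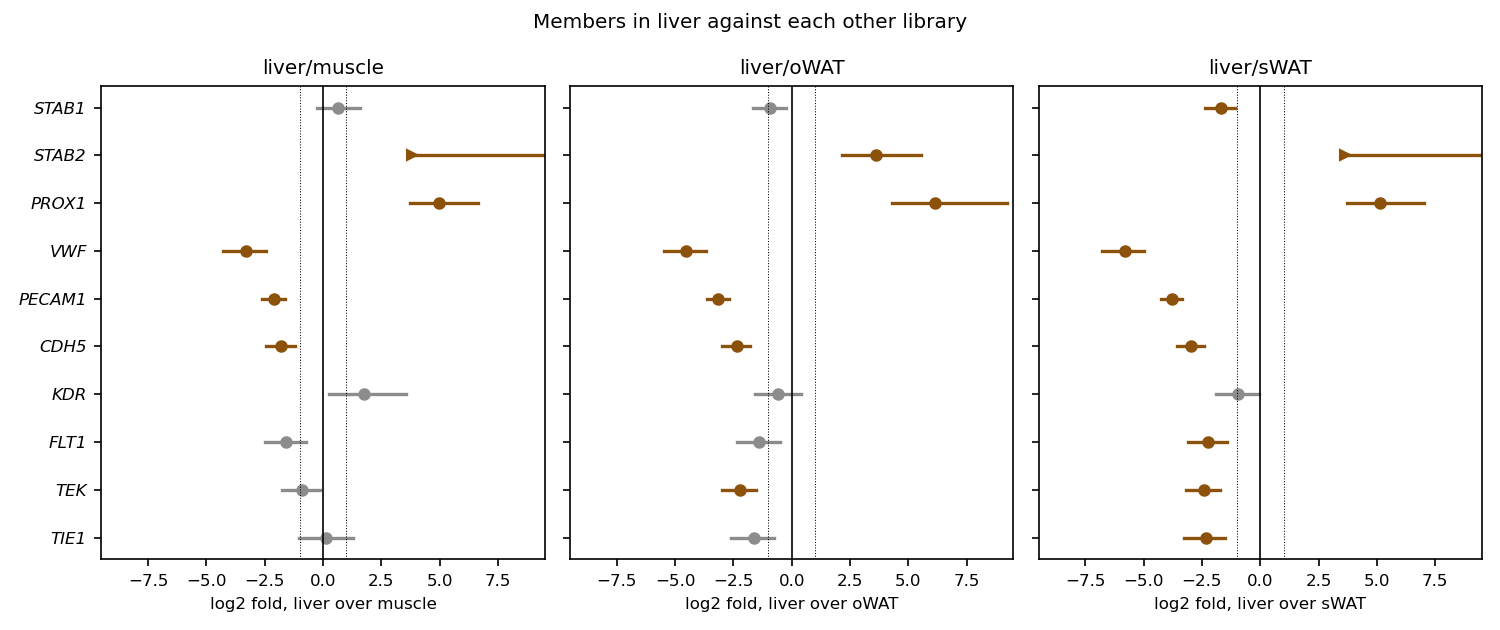
Fold of each member in liver over muscle, oWAT and sWAT on a log2 axis, with exact 95% intervals; coloured points passed the calling rule, grey ones did not, dotted lines mark 2-fold, and arrowheads mark a bound where the second library had 0 counts. STAB2 and PROX1 lie to the right of 0 in all 3 panels, and VWF, PECAM1 and CDH5 to the left.

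Counted by the calling rule, 2 of the 10 members, STAB2 and PROX1, passed as higher in liver than in every other library, where 10.8% of the 4944 genes tested were called. The same 2 of 10 were called higher in liver than in muscle (background 17.7%), than in oWAT (12.9%) and than in sWAT (13.6%) taken singly. Lower in liver than in all 3 others were VWF, PECAM1 and CDH5, which are 3 of the 7 members with enough counts to be called; STAB2, KDR and PROX1 had under 10 counts in a library where they were needed. The share over the 4616 genes tested was 11.8%. TEK joined these 3 when liver was set against the WAT libraries alone, giving 4 of 8 members against a background of 20.9%. By single pairs, the members called lower in liver were 3 of 7 against muscle (background 23.0%), 4 of 8 against oWAT (25.8%) and 7 of 8 against sWAT (24.2%). The 7 against sWAT were STAB1, VWF, PECAM1, CDH5, FLT1, TEK and TIE1. With TMM or DESeq2 scaling the counts were 2 against oWAT and 3 against sWAT, while the background became 9.95% and 11.8% with TMM and 10.1% and 12.1% with DESeq2 scaling.

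Muscle held an intermediate level of most general members. Muscle was 1.99 times lower than oWAT (1.78 to 2.22) and 3.51 times lower than sWAT (3.18 to 3.88) in the summed counts of the 7. With TMM scaling the muscle sum was 1.35 times lower than that of oWAT and 2.63 times lower than that of sWAT. With DESeq2 factors it was 1.36 and 2.73 times lower. None of the 8 members with enough counts was called lower in muscle than in both WAT libraries (background 7.05%), and none of those 8 was called lower than in oWAT (background 11.4%). Against sWAT alone, 5 of 8 were called lower in muscle (background 11.2%). They were KDR (6.65 times lower, 2.54 to 22.0), VWF (5.74 times, 4.70 to 7.05), TIE1 (5.48 times, 3.05 to 10.6), STAB1 (5.09 times, 3.03 to 9.03) and PECAM1 (3.24 times, 2.74 to 3.85). KDR lost this call with TMM and with DESeq2 scaling, where it was 0.194 times the sWAT level by DESeq2 factors. No member was called higher in muscle, out of 7 with enough counts, than in oWAT (background 8.30%), than in sWAT (9.23%) or than in both (7.33%). FLT1 in muscle was 1.14 times its oWAT level (0.729 to 1.79), the only general member with a ratio above 1; CDH5 reached 1.01 with TMM scaling.

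Between oWAT and sWAT, VWF was the 1 member called of 8 with enough counts, 2.44 times lower in oWAT (2.10 to 2.84), where 1.99% of 7040 genes were called in either direction and 0.767% were called lower in oWAT. None of the 8 was called higher in oWAT than in sWAT (background 1.43%). All 7 general members and STAB1 had ratios below 1, between 0.409 for VWF and 0.860 for TEK. The intervals of VWF, STAB1, FLT1, TIE1, PECAM1 and CDH5 lay below 1, and those of KDR (0.424 to 1.37) and TEK (0.638 to 1.16) included it. CD93, a receptor of endothelium outside the 10 members, was also called lower in oWAT, at 3.11 times (2.41 to 4.06).

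**Figure D3:**
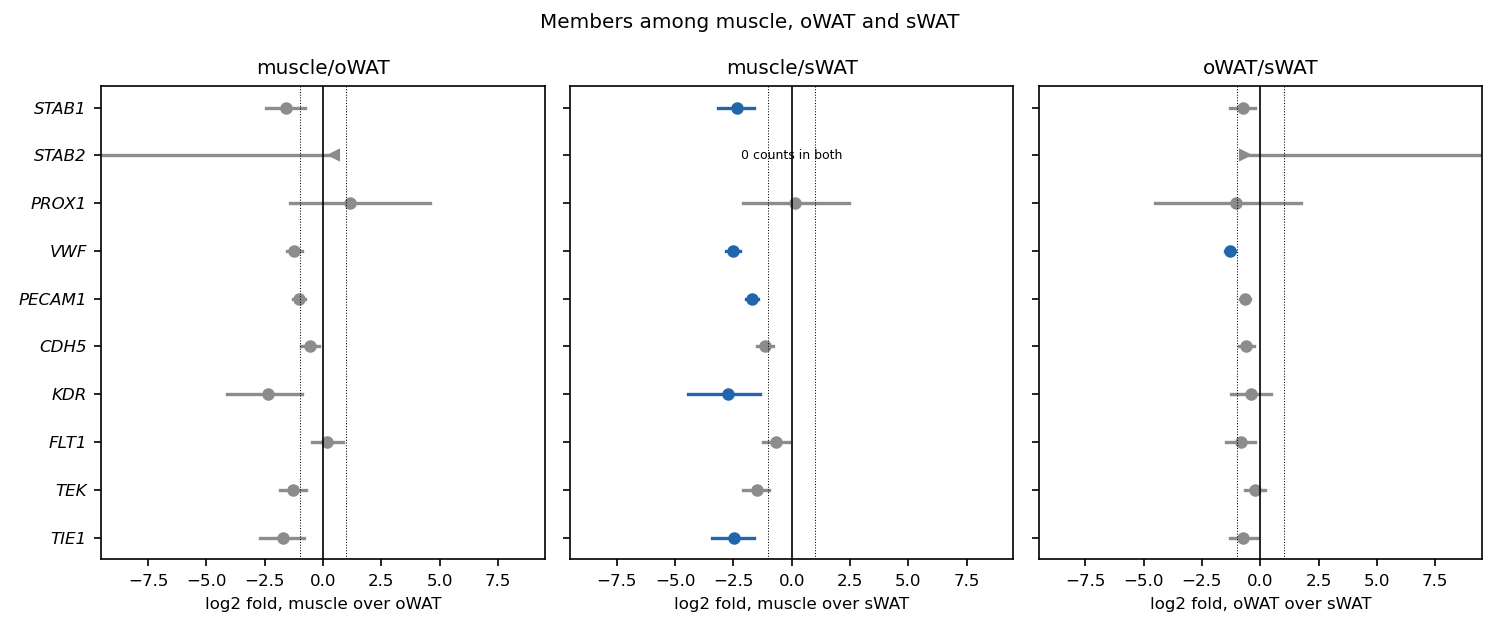
Fold of each member for muscle over oWAT, muscle over sWAT and oWAT over sWAT on a log2 axis, with exact 95% intervals; coloured points passed the calling rule, grey ones did not, and dotted lines mark 2-fold. The general members lie mostly left of 0. Over all members there are 5 calls in muscle over sWAT, STAB1 among them, and 1, VWF, in oWAT over sWAT.

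A ratio between genes of the same library does not depend on the library total, so the members were also set against one another. Per 100 counts of the 7 general members, STAB2 had 34.8 counts in liver and 0 in muscle, with 0.429 in oWAT and 0 in sWAT. The liver ratio was 81.3 times that of oWAT, with an exact conditional interval of 29.2 to 312. STAB1 had 18.1 counts per 100 in liver and 3.46 in muscle, with 5.25 in oWAT and 5.03 in sWAT. On this scale STAB1 was higher in liver, by 5.22 times over muscle (2.70 to 10.3). It was 3.44 times higher than in oWAT (2.01 to 5.77) and 3.59 times higher than in sWAT (2.18 to 5.79). Its CPM, scaled to the totals, ran in the opposite direction against either WAT library. The sum of the 7 was itself 3.34, 6.64 and 11.7 times lower in liver than in muscle, oWAT and sWAT. A gene with equal CPM in all libraries would also be higher in liver on this scale, so that direction is not particular to STAB1. VWF held 7.74% of that sum in liver and 37.1% in sWAT, so the ratios were also taken with VWF left out of it, a choice made after seeing the data. STAB1 in liver was then 4.37 times its ratio in muscle (2.25 to 8.64), 2.73 times that in oWAT (1.59 to 4.60) and 2.45 times that in sWAT (1.48 to 3.96).

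The general members also stood in different proportions to each other. VWF made up 7.74% of their summed counts in liver (exact binomial interval 4.06 to 13.1), 22.7% in muscle (19.2 to 26.5), 26.8% in oWAT (24.0 to 29.8) and 37.1% in sWAT (34.7 to 39.5). KDR made up 10.97% in liver (6.52 to 17.0), 0.962% in muscle (0.313 to 2.23), 2.47% in oWAT (1.57 to 3.68) and 1.82% in sWAT (1.22 to 2.61). Relative to the other 6, VWF in liver was thus 0.142 times its sWAT proportion (0.0712 to 0.259), and KDR in liver was 6.64 times its sWAT proportion (3.33 to 12.8) and 12.7 times that of muscle (4.37 to 44.6). TIE1 relative to the other 6 was 3.87 times higher in liver than in muscle (1.69 to 8.87), 2.27 times higher than in oWAT (1.14 to 4.31) and 2.44 times higher than in sWAT (1.26 to 4.45). FLT1 held a higher proportion in liver and muscle, at 11.5 and 10.2 counts per 100 of the other 6, against 4.25 in oWAT and 4.33 in sWAT. PECAM1 had 39.6 counts per 100 of the other 6 in liver and 57.1 in muscle, and 60.6 in oWAT and 50.6 in sWAT. Some of these ratios changed when VWF was not counted. With VWF left out of the sum, TIE1 in liver was 3.25 times its muscle proportion (1.42 to 7.46), but against oWAT (1.79, 0.893 to 3.41) and sWAT (1.63, 0.840 to 2.996) the interval included 1. KDR in liver was 10.7 times its muscle (3.68 to 37.7) and 4.52 times its sWAT proportion (2.26 to 8.77) on that scale. FLT1 in liver was 2.14 times its oWAT proportion (1.08 to 4.07) and 1.78 times that of sWAT (0.934 to 3.23, which included 1). In muscle FLT1 was 2.30 times its oWAT (1.44 to 3.69) and 1.92 times its sWAT proportion (1.27 to 2.89). PECAM1 in liver was 0.387 times its sWAT proportion without VWF (0.259 to 0.571), against 0.783 with it (0.531 to 1.14). These are shares of counts not corrected for transcript length, so they compare a gene across libraries and not the genes with each other.

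**Figure D4:**
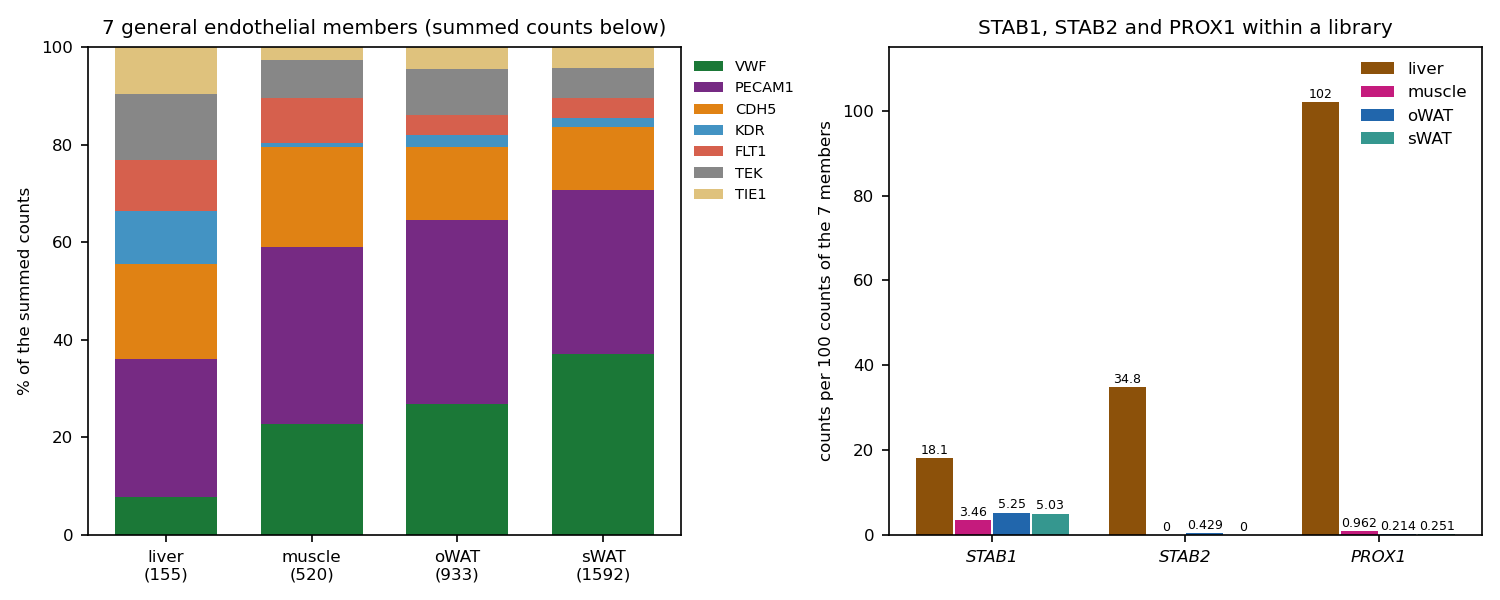
Left, the share of each of the 7 general members in their summed counts, in percent, with the summed counts under each library; right, counts of STAB1, STAB2 and PROX1 per 100 of those summed counts. VWF takes 7.74% in liver and 37.1% in sWAT, KDR takes 10.97% in liver and 2.47% or less elsewhere, and STAB1, STAB2 and PROX1 are highest in liver on this scale.

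A list of 33 further genes of general endothelium was read beside the members, 26 of them with at least 10 counts over the 4 libraries. Called lower in liver than in all 3 others were 10 of the 20 with enough counts (background 11.8%, as above): FLI1, ESAM, ROBO4, ENG, EMCN, CD34, MMRN2, ADGRL4, ACVRL1 and BCL6B. CD34, a sialomucin of capillary endothelium and of some stromal cells, had 6 counts in liver and 210 in muscle, with 374 in oWAT and 318 in sWAT, and was 34.8 times lower in liver than in muscle (15.7 to 96.0). ENG, the co-receptor endoglin, had 26, 121, 159 and 297 in those libraries and was 13.0 times lower in liver than in sWAT (8.71 to 20.3). ACVRL1, the BMP9 receptor ALK1, had 4 counts in liver and 67 in muscle, with 64 in oWAT and 65 in sWAT, and its muscle level was 0.900 times that of sWAT (0.630 to 1.29). None of the 7 with at least 10 counts in liver was called higher there than in muscle (background 17.7%), oWAT (12.9%) or sWAT (13.6%). The list's median log2 ratio was -2.19 for liver over muscle, -2.87 for liver over oWAT and -3.30 for liver over sWAT, beside -0.48, -0.98 and -0.75 over all 10127 genes with at least 10 counts. Against oWAT alone 19 of 24 were called lower in liver (background 25.8%) and against sWAT alone 21 of 24 (24.2%), which with TMM scaling were 6 (background 9.95%) and 14 (11.8%). Of the 20 tested against all 3 others, 5 kept the call with TMM scaling (ROBO4, ENG, EMCN, CD34 and ACVRL1; background 6.11%) and 6 with DESeq2 scaling, ADGRL4 included (6.22%).

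In muscle against sWAT, 7 of 24 of those genes were called lower (background 11.2%), among them CD93 (4.93 times, 3.67 to 6.72), ADGRL4 (4.03 times, 2.75 to 6.04) and CALCRL, the receptor for adrenomedullin (6.87 times, 2.64 to 22.7). With TMM scaling 2 of 24 were called, ADGRL4 and CD93 (background 5.87%), and with DESeq2 scaling 3, CALCRL as well (6.45%). CALCRL had 17 counts in liver and 5 in muscle, the same counts as KDR.

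Sinusoidal genes other than the stabilins were thinly covered. Of 17 genes in that list, which includes both stabilins, 11 had at least 10 counts over the 4 libraries. OIT3, a protein secreted in liver, had 24 counts in liver and 0 in muscle, oWAT and sWAT, a liver level at least 8.04-fold that of muscle and at least 7.02-fold that of sWAT against the floor of 3 counts, with exact lower bounds of 6.05 and 5.28. GATA4, a transcription factor that directs sinusoidal identity in the mouse and is also found in hepatocytes, had 26 counts in liver and 0 in the other libraries, a level at least 8.71-fold that of muscle, with an exact lower bound of 6.59. Of the 6 genes with at least 10 counts in liver, OIT3, GATA4 and STAB2 were the 3 called higher there than in all 3 others (background 10.8%, as above). All 3 kept the call with TMM (background 15.6%) and DESeq2 scaling (15.4%). The hepatocyte markers given above moved with these genes, and their part in the levels was not tested. LYVE1 and PLXNC1, a semaphorin receptor, were the 2 of 5 called lower in liver than in all 3 others (background 11.8%), and neither was with TMM (6.11%) or DESeq2 scaling (6.22%). MRC1, the mannose receptor of sinusoids and macrophages, had 68 counts in liver and 30 in muscle, with 99 in oWAT and 100 in sWAT, and was called lower in muscle than in both WAT libraries. F8, the clotting factor made by sinusoidal endothelium, had 36 counts in liver and 28 in muscle, with 43 in oWAT and 40 in sWAT, and no pair was called. The list's median log2 ratio was 0.49 for liver over muscle, -0.68 for liver over oWAT and -1.29 for liver over sWAT, beside -0.48, -0.98 and -0.75 for all genes. With TMM scaling, which shifts every gene alike, these medians were 0.94, 0.33 and -0.43, so the sign against oWAT turned.

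Lists of genes for particular vessel types held few genes with enough counts. GPIHBP1, which holds lipoprotein lipase on the capillary wall, had 0 counts in liver and 31 in muscle, with 47 in oWAT and 55 in sWAT, at least 20.9 times lower in liver than in sWAT against the floor, with an exact lower bound of 16.4. All 7 tested genes of the capillary list were called lower in liver than in sWAT (background 24.2%, as above); that list contains FABP4 and CD36, which adipocytes make in quantity. SEMA3G, an arterial semaphorin, had 0 counts in liver and 15 in muscle, with 65 in oWAT and 179 in sWAT. It was 13.7 times lower in muscle than in sWAT (8.07 to 24.9) and 2.85 times lower in oWAT than in sWAT (2.13 to 3.84), steps in the same direction as those of VWF. In the arterial list 5 of 6 genes were called lower in liver than in sWAT, and in the venous list 3 of 5 (ACKR1, SELP and CPE). With TMM or DESeq2 scaling these were 7 of 7 capillary, 3 of 6 arterial and 2 of 5 venous genes (background 11.8% and 12.1%). Against muscle, the genes called lower in liver were 2 of 5 capillary (GPIHBP1 and MEOX2), 2 of 4 arterial (SEMA3G and FBLN5) and 1 of 3 venous (CPE), where the background was 23.0%. EPHB4, a venous receptor tyrosine kinase, had 16 counts in liver and 17 in muscle, with 10 in oWAT and 16 in sWAT, and NR2F2, a venous transcription factor, had 5, 5, 15 and 3 in those libraries. Neither gene was called in any pair. VCAM1, a leukocyte adhesion molecule not restricted to veins, went another way: it had 71 counts in liver and 14 in muscle, with 130 in oWAT and 43 in sWAT. It was 2.92-fold higher in oWAT than in sWAT (2.06 to 4.23).

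**Figure D5:**
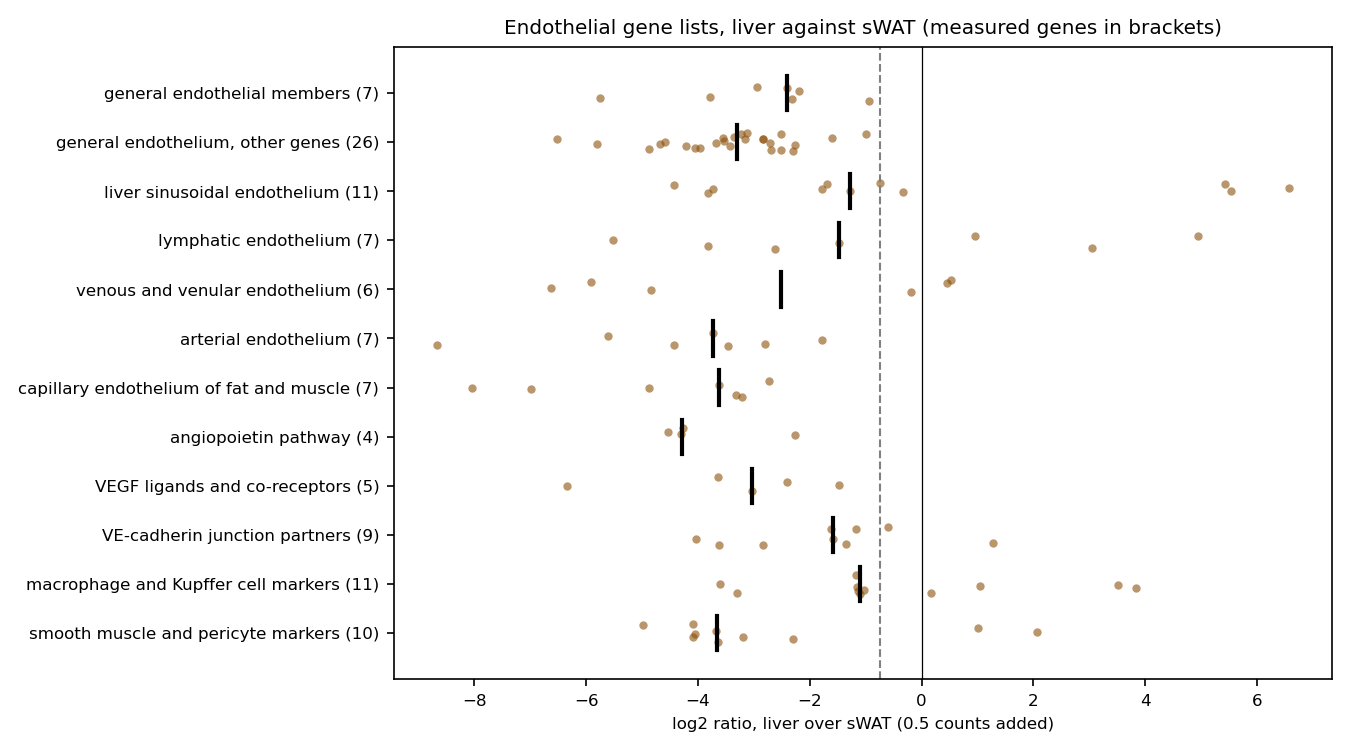
Log2 ratio of liver over sWAT, with 0.5 counts added, for the genes of 12 lists with at least 10 counts over the 4 libraries; each point is a gene, the black bar the list median and the dashed line the median of all genes at -0.75. The general endothelial lists lie left of the dashed line, while the sinusoidal and lymphatic lists hold genes on both sides of 0.

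Ligands and partners of TEK and TIE1 had few counts in liver. ANGPT1, the activating ligand of TEK, had 1 count in liver and 3 in muscle, with 21 in oWAT and 25 in sWAT, and ANGPT2, its context-dependent antagonist, had 1 in liver and 23 in muscle, with 22 in oWAT and 30 in sWAT. ANGPT1 in liver was 28.5 times lower than in sWAT (4.66 to 1170). SVEP1, a matrix protein that binds TIE1, had 3 counts in liver and 15 in muscle, with 145 in oWAT and 60 in sWAT. PTPRB, the phosphatase VE-PTP that restrains TEK, had 17 counts in liver and 25 in muscle, with 29 in oWAT and 73 in sWAT. All 4 of these genes were called lower in liver than in sWAT (background 24.2%), and PTPRB lost the call with TMM and DESeq2 scaling. Against muscle 1 of 3, ANGPT2, was called lower in liver (background 23.0%).

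For the VEGF receptors, NRP1 and NRP2, the neuropilin co-receptors, had 21 and 12 counts in liver, 12 and 10 in muscle, 74 and 59 in oWAT and 154 and 58 in sWAT. Both were called lower than in either WAT library, in liver (background 20.9%) and in muscle (7.05%) alike. With TMM or DESeq2 scaling the muscle calls were kept (background 2.99% and 3.15%). Neither gene was then called lower in liver than in both WAT libraries (8.89% and 9.08%). With TMM scaling NRP1 in liver was 0.517 times its oWAT level (0.302 to 0.848) and 0.217 times its sWAT level (0.130 to 0.343), the second of which was still called, and NRP2 was 0.370 times (0.181 to 0.696) and 0.328 times (0.161 to 0.618). VEGFD, a ligand of KDR and FLT4 in humans, had 0 counts in liver and 8 in muscle, with 7 in oWAT and 35 in sWAT, and was 5.17 times lower in oWAT than in sWAT (2.26 to 13.8). VEGFB had 1 count and VEGFC 2 counts over the 4 libraries, too few for a comparison.

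Around VWF, the liver held the plasma enzyme that cleaves it: ADAMTS13 had 50 counts in liver and 4 in muscle, with 6 in oWAT and 3 in sWAT, a fold of 7.56 over oWAT (3.24 to 21.6). TFPI, the tissue factor pathway inhibitor, had 73 counts in liver and 18 in muscle, with 19 in oWAT and 39 in sWAT. ADAMTS13 and TFPI were called higher in liver than in muscle (2 of 3 tested, background 17.7%) and than in oWAT (2 of 3, 12.9%). Against sWAT ADAMTS13 alone was (1 of 3, 13.6%). MMRN1 and ANGPT2 of the same list were called lower in liver than in muscle (2 of 4, 23.0%). SELP, the P-selectin stored with VWF in endothelial granules, had 0 counts in liver and 8 in muscle, with 24 in oWAT and 26 in sWAT, at least 9.88 times lower in liver than in sWAT against the floor, with an exact lower bound of 7.48.

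The cytoplasmic and junctional partners of CDH5 followed it only in part. Of 9 tested genes, 6 were called lower in liver than in sWAT (background 24.2%): CTNNB1, CTNNA1, ESAM, JAM2, JAM3 and TJP1. Against oWAT 5 of 9 were called lower in liver (25.8%), and against muscle 2 of 9, JUP and ESAM (23.0%). JUP had 17 counts in liver and 109 in muscle, with 68 in oWAT and 34 in sWAT. JAM2 and ESAM, which are concentrated in endothelium, were 18.2 times (6.79 to 69.0) and 7.34 times (4.31 to 13.3) lower in liver than in sWAT. CTNNB1, the beta-catenin found in most cells, had 192 counts in liver and 223 in muscle, with 330 in oWAT and 428 in sWAT, a difference of 2.54 times between liver and sWAT (2.14 to 3.03). F11R, a junctional protein of epithelium and endothelium, had 101 counts in liver and 26 in muscle, with 56 in oWAT and 36 in sWAT, the reverse order of liver and muscle to CDH5.

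Markers of other vessel-wall and blood cells were measured beside the members. The smooth muscle and pericyte list summed to 247 CPM in liver and 1175 in muscle, with 1321 in oWAT and 2081 in sWAT. CSPG4 and NOTCH3 were at 0 in liver and none of the 10 was at 0 elsewhere. The sum ran in the same order as the general endothelial sum, and 5 of 6 of its tested genes were called lower in liver than in sWAT (background 24.2%). Lower in liver than in every other library were 4 of 5 tested genes, ACTA2, MYH11, RGS5 and PDGFRB (background 11.8%). Its pericyte genes differed among themselves. PDGFRB had 13 counts in liver and 131 in muscle, with 181 in oWAT and 372 in sWAT, the order of the sum. RGS5, a regulator of G-protein signalling, had 12 counts in liver and 233 in muscle, with 138 in oWAT and 100 in sWAT. ABCC9 had 42 counts in liver and 20 in muscle, with 5 in oWAT and 18 in sWAT, and was called higher in liver than in oWAT (7.62-fold, 3.02 to 24.7). KCNJ8, which forms a potassium channel with ABCC9, had 21 counts in liver and 2 in muscle, with 6 in oWAT and 4 in sWAT, and was called higher in liver than in muscle (10.6-fold, 2.58 to 92.9). Platelets also contain VWF and PECAM1. Of 8 platelet and blood cell markers 4 had counts, and the list summed to 45.7 CPM in liver and 31.8 in muscle, with 106 in oWAT and 78.1 in sWAT. Most of that came from blood cell genes, such as PTPRC (34.3 CPM in liver and 98.3 in oWAT) and HBB (39.1 in sWAT). The platelet genes PPBP and ITGA2B had 3 and 7 counts over the 4 libraries, too few to gauge platelets. The mesothelium list was at 0 in muscle and in sWAT and summed to 22.9 CPM in liver and 4042 CPM in oWAT. The fibroblast list summed to 391 CPM in liver and 21438 in muscle, with 24504 in oWAT and 82944 in sWAT, so the same order held there. The part of these cells in the members' levels was not tested.

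Among 5372 other named genes with a symbol and at least 50 counts, those with the closest distribution over the 4 libraries were found by the Euclidean distance between shares of scaled counts. For STAB2 they were MST1 (distance 0.00928), SUOX (0.0255) and NNMT (0.0292), and for PROX1 EHHADH (0.0199), ABAT (0.0238) and SDC1 (0.0242). For VWF they were STEAP4 (0.00849), ITIH5 (0.0130) and ADAMTS2 (0.0208), and for STAB1 FAM91A1 (0.0293), LPP (0.0331) and FNDC3B (0.0333). For the sum of the 7 general members they were LAMC1 (0.0239), BPNT2 (0.0251) and LRRC32 (0.0269). The genes within a distance of 0.05 numbered 14 for STAB2, 36 for PROX1, 13 for VWF, 12 for STAB1 and 27 for the sum. With 4 libraries, such likeness is a description of these counts.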

How the data were processed

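Per the labels' protocols, RNA of each tissue from 5 monkeys was pooled into 1 library and sequenced on the PacBio Sequel II. Alignment used minimap2 2.24, per the submitters' processing notes. For gene assignment, strand, build and annotation, methods were not given in the sources used here. Deposited values are whole-number counts per gene without normalization, and an unlisted gene was set to 0. File names abbreviate both WAT tissues otherwise than the labels, which were followed. An entry without a gene name held 19.2% of liver, 14.3% of muscle, 19.5% of oWAT and 16.6% of sWAT counts and stayed out of totals.

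Folds and exact intervals were computed with Python 3.11.15, NumPy 2.4.6, pandas 2.3.3 and SciPy 1.17.1. Ratios within a library used conditional odds ratio intervals. Alternative scalings used edgeR 4.0.16 and DESeq2 1.42.0 (R 4.3.3), for factors alone; the drawing library was matplotlib 3.10.9. Before use, the calling rule was checked on simulated data. Alternatives were those scalings, totals with the unnamed entry or without the 10 most abundant genes, minimum counts of 5 and 20, a 99% interval, fold bounds of 1 and 4, and scaling to the other general endothelial members, with and (added after seeing the data) without VWF. With 1 library per tissue no replicate test was possible. Reads carry no molecular identifiers here, so intervals and floors cover counting error only.

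The members and lists were chosen with earlier results of these data known. The plan was to name all 10 members, of each list the members called in the comparison described and up to 6 more by total counts. The 3 genes nearest in pattern were named as well. Not every list gene that the plan covers is named above. The symbols of all 10 members matched the RefSeq table of assembly T2T-MFA8v1.1, and without a known build for the counts no position is printed.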

Additional observations from a re-analysis of the deposited data

How the results depend on the processing

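STAB2 and PROX1 were called higher in liver than in each other library under all 9 alternatives for the counts (7.18% to 16.9% of all genes), and in each of those pairs when scaled to the other general members. In the counts that follow, the percentage is the share of all genes called under that setting. The 3 members lower in liver than in each other library became 2 with TMM (6.11%) or DESeq2 scaling (6.22%), CDH5 being lost, 5 with a fold bound of 1 (32.8%) and 1, VWF, with a bound of 4 (4.27%). Lower in liver than in both WAT libraries were 4 members, which became 2 with TMM (8.89%), 2 with DESeq2 (9.08%), 7 with a bound of 1 (47.3%) and 2 with a bound of 4 (8.51%). Lower than in oWAT the counts were the same, beside 9.95%, 10.1%, 58.1% and 9.98% of all genes. Against muscle 3 became 2 with TMM (16.1%), 2 with DESeq2 (16.1%), 5 with a bound of 1 (48.1%) and 1 with a bound of 4 (10.7%). Against sWAT 7 became 3 with TMM (11.8%), 3 with DESeq2 (12.1%) and 3 with a bound of 4 (10.8%). In muscle, the 0 members lower than in both WAT libraries became 7 with a bound of 1 (30.8%), and the 5 lower than in sWAT became 8 with a bound of 1 (37.8%) and 1 with a bound of 4 (2.40%). Between oWAT and sWAT 1 became 6 with a bound of 1 (22.7%) and 0 with a bound of 4 (0.511%). These single-pair counts, and that for both WAT libraries, were added after seeing the data. Scaling to the other general members raises every ratio of liver over another library, as their sum is lowest in liver. Scaled to the other general members instead of the library total, called ratios turned above 1: liver over sWAT for STAB1 (3.59), FLT1 (2.66), TIE1 (2.44), TEK (2.36) and CDH5 (1.62), liver over oWAT for TEK (1.50) and CDH5 (1.36), and muscle over sWAT for PECAM1 (1.13). Without VWF in the sum, added after seeing the data, these ratios were 2.45 for STAB1, 1.78 for FLT1, 1.63 for TIE1, 1.57 for TEK and 1.03 for CDH5 in liver over sWAT, 1.16 for TEK and 1.03 for CDH5 in liver over oWAT, and 0.773 for PECAM1 in muscle over sWAT. With VWF in the sum, the intervals of TEK (0.857 to 2.54) and CDH5 (0.846 to 2.13) over oWAT and of PECAM1 (0.912 to 1.39) included 1. Without VWF, the interval of STAB1 lay above 1 (1.48 to 3.96) and that of PECAM1 below it (0.609 to 0.981). All the other intervals without VWF included 1. Minimum counts of 5 or 20 and totals with the entry that names no gene changed no call of a member. The STAB1 call between liver and sWAT was also lost with a 99% interval and with totals without the 10 most abundant genes. Scaling to genes with long proteins was not run, as no protein lengths were at hand. No paired analysis was possible because each tissue is 1 library. Members with under 20 counts in a library have wide intervals, so differences such as that of KDR between liver and muscle are limited by depth.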
